A study of Mus musculus with 2 samples.

Results

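The Saa3 set is a group of fibroblast barcodes of the mouse aorta picked for transcripts of Saa3, Cxcl14, Lbp, Il33 and Chl1. A barcode, the tag of 1 droplet, was a member if it met 3 conditions. It held at least 2000 UMIs (unique molecular identifiers, each standing for 1 captured transcript) and 800 genes with at most 20% mitochondrial UMIs, and it carried at least 40 Dcn UMIs per 10000. At least 3 of the 5 genes were detected in it. At most 2 genes were detected of each of 3 competing sets, which were Inmt, Hsd11b1, Dpep1, Abca8a and Hhip, then Opcml, Pcsk6, Cd55, Pla1a and Adgrd1, and then Penk, Mmp13, Prg4, Mme and Wif1. The rule kept 492 of the 9836 Dcn-high barcodes and of the 20650 barcodes past the depth limits. Since measured values chose the members, every value of the 5 genes and of the competing sets in them is a description of that choice.

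The aortas came from 20-week-old ApoE-/- mice, which lack apolipoprotein E and form atherosclerotic plaques. The study had 2 samples, labelled HFD and MSC_ITGB3, from mice on HFD without and with MSC_ITGB3. All mice of both samples carried the ApoE deletion and were on HFD by the series text, and the labels do not say what MSC_ITGB3 stands for, its dose or how many animals were pooled. The counts form 2 libraries that no label or header ties to a sample, so they are called library 1 and library 2, neither is given a treatment, and HFD was not compared with MSC_ITGB3. Paired values are for library 1 and then library 2. With 1 library per sample there is no replicate and no test. Brackets give exact 95% intervals (Poisson for levels, conditional binomial for ratios, Clopper-Pearson for shares) that cover counting error only.

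Fibroblasts of the vessel wall lie mainly in the adventitia, where they make collagen and other matrix. Inflammatory cytokines such as interleukin 1 and interleukin 6 act through NF-kB, STAT3 and C/EBP factors to switch on acute-phase genes, which are best known from liver. Fibroblasts can also express some of these genes, among them serum amyloid A3, complement components and chemokines that draw in monocytes and lymphocytes.

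Members made up 5.23% (4.57 to 5.95) and 4.83% (4.29 to 5.42) of Dcn-high barcodes, with 217 of 4147 in library 1 and 275 of 5689 in library 2. Their median depth was 3700 and 3785 UMIs, against 3879 and 3039 in the other Dcn-high barcodes. Depth was uneven within the set. The 55 and 54 members with 8000 UMIs or more held 69.9% and 54.9% of its UMIs, so summed values lean on them. No barcode sequence was a member in both libraries, although 43 passed the depth limits in both. Levels below are CPM, a gene's UMIs per 1000000 UMIs summed over a group. They are counts of 3′ ends and need no division by gene length.

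Fibroblast genes were present in both libraries, and the Dcn limit of the rule selects for such barcodes. Lum, which encodes the matrix proteoglycan lumican, stood at 4042 and 4747 CPM, close to the 4239 and 4571 CPM of other Dcn-high barcodes. Col1a1, a chain of type I collagen, stood at 9455 and 6321 CPM, against 4325 and 5368 CPM there. Pdgfra, a receptor that marks fibroblasts, stood at 228 and 207 CPM, against 13.8 and 25.2 CPM in endothelial barcodes (3 or more of Cdh5, Pecam1, Cldn5, Egfl7 and Emcn detected, Dcn below the limit). Free RNA, measured in 54565 and 33399 low-count barcodes of 20 to 100 UMIs, held 86.5 and 68.4 CPM of Pdgfra, below the members. It also held 2533 and 3318 CPM of Lum and 1963 and 3590 CPM of Col1a1, again below the members.

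Markers of other cell types were present at differing levels. The 12 mesothelial markers summed to 7.0 and 4.89 CPM, with 8 and 9 of them at 0 UMIs, among them Msln and Krt19. Of the 6 adipocyte markers, Adipoq, Plin1, Cidec, Retn and Lep were at 0 in both libraries. The last, Fabp4, gave the whole sum of 132 and 112.5 CPM. The 6 summed to 162 and 155 CPM in other Dcn-high barcodes and 364 and 259 CPM in free RNA. The 10 contractile smooth muscle markers were all present at a sum of 1727 and 3101 CPM, against 3071 and 5005 CPM in other Dcn-high barcodes and 10361 and 13882 CPM in free RNA. At least 3 of them were detected in 105 and 174 members (48.4% and 63.3%, or 34.1% and 41.8% after thinning to 2000 UMIs), against 59.2% and 75.6% of other Dcn-high barcodes (40.8% and 60.7% after thinning). The 10 endothelial markers summed to 256 and 116 CPM, against 1163 and 515 CPM in free RNA. The 11 macrophage markers summed to 1083 and 467 CPM, against 537 and 509 CPM in other Dcn-high barcodes and 2450 and 1994 CPM in free RNA. At least 3 of them were detected in 17.1% and 16% of members and 15.8% and 15.6% of other Dcn-high barcodes. Lyz2 supplied most of the macrophage sum in library 1, at 684 CPM. At least 3 of 10 chondrocyte markers were detected in 4 and 40 members (1.84% and 14.5%), against 7.38% and 19.9% of other Dcn-high barcodes. The 6 pericyte markers summed to 619 and 582 CPM, against 540 and 537 CPM in other Dcn-high barcodes and 557 and 825 CPM in free RNA. The 8 Schwann cell markers summed to 122 and 100 CPM, against 129 and 115 CPM in other Dcn-high barcodes. At least 3 of the 8 were detected in 2.76% and 2.55% of members and 1.30% and 0.868% of other Dcn-high barcodes. The Dcn limit does not remove a droplet that holds a fibroblast and another cell, and no doublet caller was run.

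The genes lie on GRCm38.p6, by RefSeq, at chr7:46711998-46719615 (Saa3, ENSMUSG00000040026), chr13:56288643-56296811 (Cxcl14, ENSMUSG00000021508), chr2:158306493-158332852 (Lbp, ENSMUSG00000016024), chr19:29925113-29960718 (Il33, ENSMUSG00000024810), chr6:103510584-103733038 (Chl1, ENSMUSG00000030077) and chr17:34856374-34862514 (Cfb, ENSMUSG00000090231). Saa3 encodes serum amyloid A3, an acute-phase apolipoprotein made outside the liver, and it was the most abundant of the 5 genes. Its level over all members was 4618 CPM (4521 to 4717) and 2465 CPM (2394 to 2538). In single barcodes the lowest value was 0, the median 1099 and 485 CPM, and the highest 49581 and 37719 CPM. It was absent from 48 and 83 members. The 10 barcodes with most Saa3 UMIs held 65.1% and 67.9% of all Saa3 UMIs of the set. The summed level of Saa3 therefore describes few barcodes. A single barcode of 51698 UMIs held 43.0% of the Saa3 UMIs of library 2, and without it the level there was 1446 CPM and the ratio to other Dcn-high barcodes was 9.01 in place of 15.4 (this barcode was singled out after the values were seen).

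Cxcl14, a chemokine of epithelium and stroma, stood at 314 CPM (289 to 341) and 640 CPM (604 to 677). It was absent from 143 and 138 members, which put its barcode median at 0 and 0 CPM, and its highest value was 10151 and 16960 CPM. Lbp, which hands bacterial lipopolysaccharide to CD14, was found in 194 and 236 members at 749 and 717 CPM, with barcode medians of 539 and 434 CPM. Il33, a nuclear alarmin of the interleukin 1 family, was found in 175 and 225 members at 451 and 398 CPM. Chl1, a neural cell adhesion molecule, was found in 139 and 179 members at 281 and 332 CPM. Saa3, Lbp, Il33 and Chl1 were thus each found in most members, and Cxcl14 was found in 74 and 137.

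**Figure D1:**
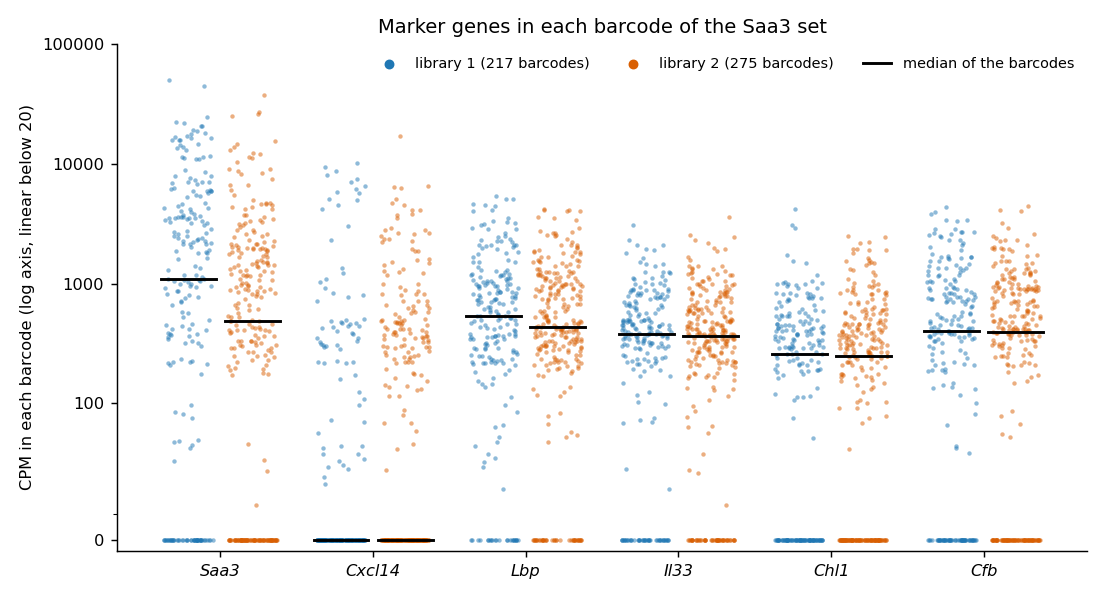
Level of the 5 chosen genes and Cfb in each member barcode, in CPM on a log axis that is linear below 20. Each point is 1 barcode of library 1 (blue, 217) or library 2 (orange, 275) and the black bar is the median over barcodes. Saa3 runs up to 49581 and 37719 CPM, while the Cxcl14 medians lie at 0.

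Cfb, complement factor B of the alternative pathway, was not part of the rule. It was named as a marker of the set with earlier results of these data known, so it is no independent check. It was found in 160 and 192 members, with barcode medians of 404 and 396 CPM and highest values of 4377 and 4440 CPM. Its summed level was 648 CPM (612 to 685) and 673 CPM (636 to 712). In other Dcn-high barcodes it stood at 223 and 163 CPM, which gives ratios of 2.91 (2.73 to 3.09) and 4.13 (3.88 to 4.4). After each barcode was thinned to 2000 UMIs, 57.1% and 56.4% of members held a Cfb UMI, against 26.2% and 23.9% of other Dcn-high barcodes and 9.73% and 12.8% of endothelial barcodes. Without thinning the share was 73.7% and 69.8% of members and 27.1% and 25.4% of endothelial barcodes, whose median depths were 5946 and 4092 UMIs.

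Each of the 5 genes was also measured in barcodes chosen by at least 3 of the other 4, so that its own detection played no part. Saa3 then stood at 4939 and 2788 CPM, which was 8.04 times (7.82 to 8.27) and 14.8 times (14.2 to 15.4) the level in the remaining Dcn-high barcodes. Without the barcode of 51698 UMIs the ratio of library 2 was 6.97. The ratio was 6.42 and 8.24 for Cxcl14, 5.36 and 10.9 for Chl1, 3.30 and 4.33 for Il33, and 3.10 and 3.93 for Lbp. All 5 genes were higher in barcodes chosen by the others in both libraries. These barcodes numbered 102 to 185 per gene in library 1 and 144 to 214 in library 2. The 5 genes were chosen with earlier results of these data known, so these ratios are no independent check of the set.

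The set has no gap around its limit. Exactly 3 of the 5 genes were detected in 136 and 164 members, 4 in 62 and 78, and all 5 in 19 and 33. Barcodes just outside, with 2 genes detected and the other limits met, numbered 350 and 429. Saa3 stood at 643 and 445 CPM in them, against 2471 and 894 CPM in members with 3. Cfb stood at 160 and 214 CPM at 2 genes, 301 and 484 CPM at 3, 972 and 713 CPM at 4, and 1059 and 1297 CPM at 5. Cfb thus stood higher at each step.

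The limits on the competing sets removed barcodes with a similar profile. A further 176 and 123 Dcn-high barcodes had 3 or more of the 5 genes but more than 2 of a competing set, and their median depth was 20076 and 13101 UMIs. In library 1 the limit of the Opcml set was passed by 115 of them and that of the Inmt set by 93. Saa3 stood at 3945 and 1546 CPM and Cfb at 794 and 442 CPM in these barcodes. They count among the other Dcn-high barcodes here and held 77.7% and 61.2% of the Saa3 UMIs found there. Against the remaining 3754 and 5291 Dcn-high barcodes alone, members had 33.0 and 37.1 times the Saa3 level, 40.4 and 39.2 times the Chl1 level, and 4.24 and 4.68 times the Cfb level. Without the barcode of 51698 UMIs the Saa3 ratio of library 2 was 21.8. For Saa3, Chl1 and Cfb the ratios to all other Dcn-high barcodes are smaller than those to barcodes with fewer than 3 of the 5 genes.

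Across the aorta the set held a larger share of its marker transcripts than of the barcodes. Members made up 2.37% and 2.39% of all barcodes past the depth limits. They held 25.8% and 34.9% of the Saa3 UMIs, 22.4% and 32.7% of the Cxcl14 UMIs, 12.1% and 16.9% of the Lbp UMIs, and 8.12% and 11.2% of the C3 UMIs in those barcodes. Other Dcn-high barcodes held more of each, at 57.3% and 38.9% for Saa3 and 60.6% and 47.8% for Cxcl14. For Lbp they held 75.6% and 70.1%, and for C3 76.3% and 68.6%. The rule chose members by Saa3, Cxcl14 and Lbp, so the shares of these genes are in part set by it. For each of the 3 competing sets the mirror image of the rule was applied, which gave an Inmt set of 792 and 1020 barcodes, an Opcml set of 235 and 131, and a Penk set of 140 and 302. Saa3 stood at 36.6 and 24.1 CPM in the Inmt set, 16.5 and 18.6 CPM in the Opcml set, and 269 and 75.8 CPM in the Penk set. Free RNA held 217 and 163 CPM of Saa3, so only the Penk set of library 1 lay above it among the 3. The mirrored rule leaves out barcodes in which 3 or more of the Saa3 set's defining genes were detected. Low Saa3 in the mirrored sets is thus in part set by that rule. Dcn-high barcodes with 3 or more of those genes but over a competing limit held 3945 and 1546 CPM of Saa3. The mirrored sets therefore cannot show whether fibroblasts with Inmt, Opcml or Penk set genes lack Saa3. Cfb was nearer between sets, at 295 and 267 CPM in the Inmt set, 211 and 234 CPM in the Opcml set, and 33.4 and 36.0 CPM in the Penk set.

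**Figure D2:**
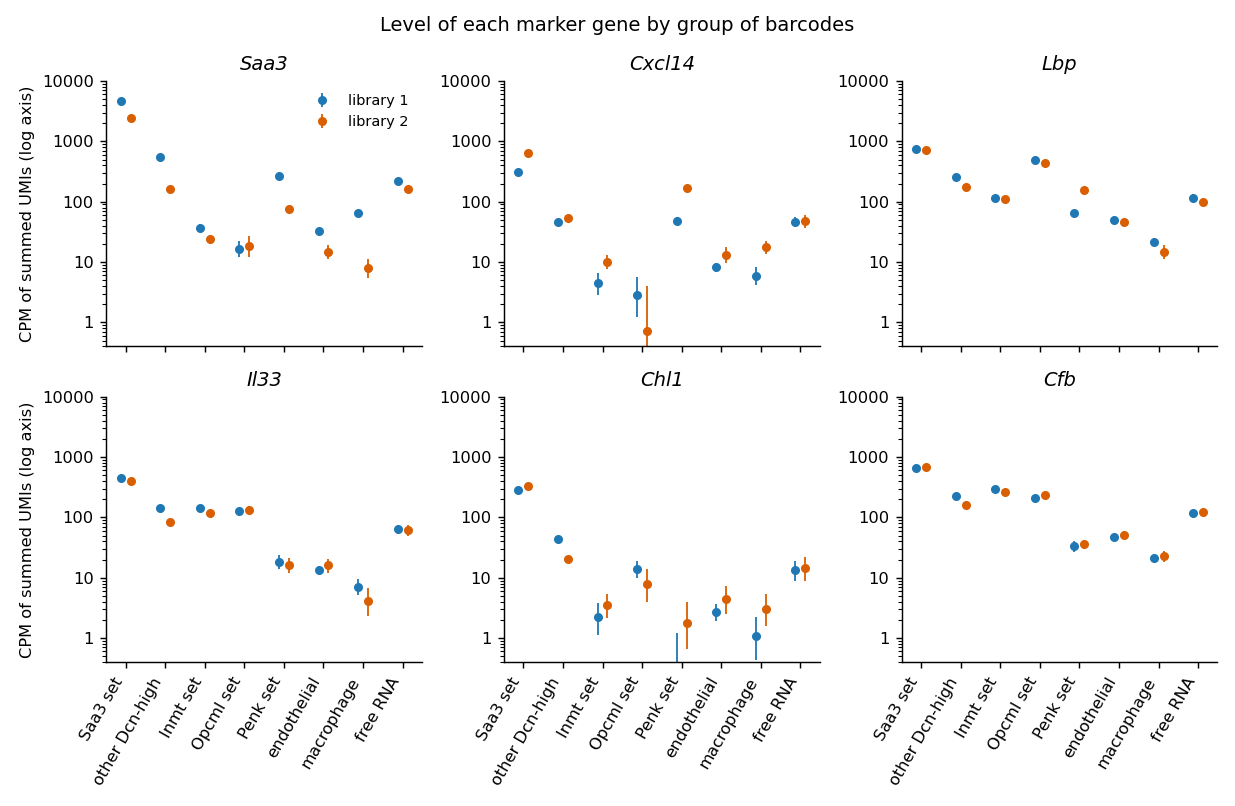
Level of the 5 chosen genes and Cfb in CPM of summed UMIs (log axis) in the Saa3 set, the other Dcn-high barcodes, the 3 mirrored sets, endothelial and macrophage barcodes and free RNA. Points are library 1 (blue) and library 2 (orange) and bars are 95% counting intervals. Among the groups drawn the Saa3 set is highest for all 6 genes, which for the 5 chosen genes is in part set by the rule. Barcodes with 3 or more of the 5 genes but over the limit of a competing set are not drawn apart. In library 1 they stood above members for Lbp, Il33, Chl1 and Cfb and below for Saa3 and Cxcl14. In library 2 they stood below members for all but Lbp (719 against 717 CPM). Chl1 had 0 UMIs in the Penk set of library 1, which is drawn as the interval alone.

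Saa3 and Cxcl14, the pair in the set's working name, were high together in few members. With 1000 CPM taken as high, which is 2 to 4 UMIs in a barcode of 2000 to 4000 UMIs, 109 and 92 members were high in Saa3 alone. High Cxcl14 without high Saa3 was found in 14 and 22 members, of which 12 and 15 had no Saa3 UMI at all. Both genes were high in 6 and 14 members (2.76% and 5.09%), and neither was high in 88 and 147. Counted by detection of any UMI, both were found in 45 and 91 members, Saa3 alone in 124 and 101, Cxcl14 alone in 29 and 46, and neither in 19 and 37. Of the members high in Cxcl14, 30% (11.9 to 54.3) and 38.9% (23.1 to 56.5) were also high in Saa3, against 53.0% and 38.5% of all members. High Saa3 was thus about as frequent beside high Cxcl14 as among all members in library 2. Both genes belong to the rule, and a member without Saa3 needs 3 of the other 4 genes. How often the pair occurs together among members is therefore in part set by the rule. The pair of genes in the name does not describe a typical member. Members high in Saa3 alone had 10344 and 4671 CPM of Saa3 with 51.2 and 147 CPM of Cxcl14, whereas those high in Cxcl14 alone had 6262 and 3367 CPM of Cxcl14 with 35.2 and 79.3 CPM of Saa3.

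The members high in Cxcl14 alone were compared with those high in Saa3 alone. In library 1 their Lbp level was 1847 CPM and their Cfb level 1601 CPM, against 879 and 907 CPM in members high in Saa3 alone. In library 2 the same barcodes had 560 CPM of Lbp and 560 CPM of Cfb, against 1133 and 694 CPM. All 14 such barcodes of library 1 had fewer than 8000 UMIs, and below that depth Cfb stood at 722 against 689 CPM in library 2. A barcode without Saa3 needs 2 of Lbp, Il33 and Chl1 beside Cxcl14 to be a member, so the Lbp values are in part set by the rule. Mmp3, which encodes the matrix protease stromelysin 1, stood at 580 and 7647 CPM in members high in Cxcl14 alone and at 2803 and 1687 CPM in members high in Saa3 alone. Mmp3 was thus lower beside high Cxcl14 in library 1 and higher in library 2, also below 8000 UMIs (580 against 1678 and 3944 against 1878 CPM). Hp, which encodes haptoglobin, stood at 440 and 94.2 CPM beside high Cxcl14 and at 2577 and 1428 CPM beside high Saa3. Below 8000 UMIs the Hp levels of library 2 were 259 beside high Cxcl14 and 192 CPM beside high Saa3, and the 11 deep barcodes high in Saa3 held 3162 CPM.

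**Figure D3:**
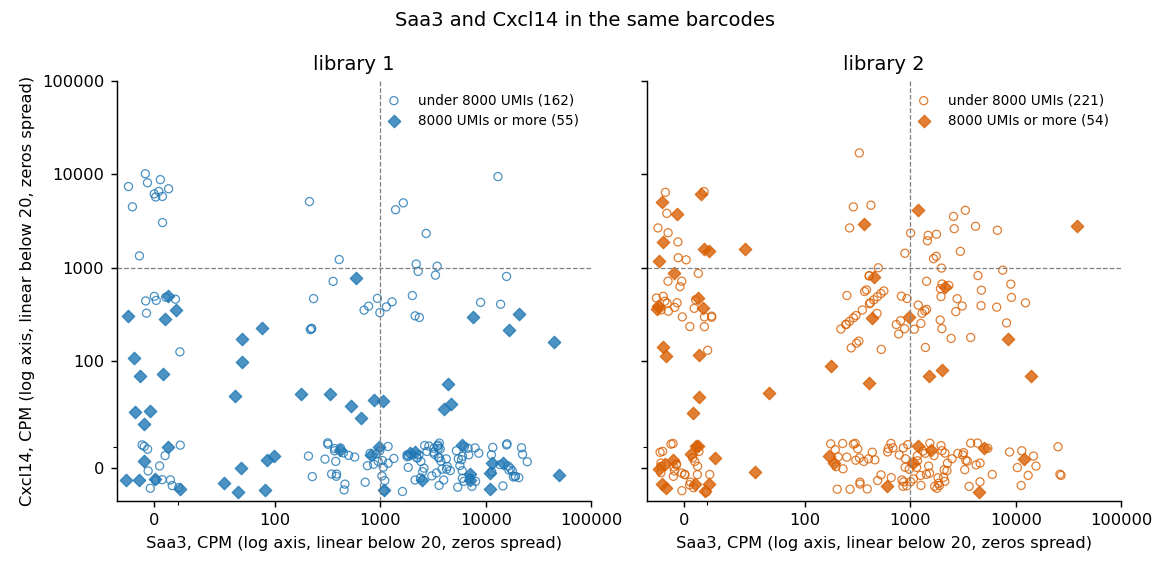
Saa3 (horizontal) against Cxcl14 (vertical) in each member barcode, in CPM on log axes that are linear below 20, with zeros spread around 0 to show their number. Filled diamonds are barcodes of 8000 UMIs or more (55 and 54), open circles are shallower ones (162 and 221), and dashed lines mark 1000 CPM. The upper right field, where both are high, holds 6 and 14 barcodes.

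Depth moved with these values. All 20 members of library 1 that were high in Cxcl14 had fewer than 8000 UMIs. In the deep members of library 1 Cxcl14 stood at 72.4 CPM, only 1.30 times the level of deep other Dcn-high barcodes, while in library 2 it stood at 685 CPM, a ratio of 9.73. The 10 members of library 1 with the highest Cxcl14 level held 57.9% of its Cxcl14 UMIs. Of these 10, 9 had no Saa3 UMI and 6 held a UMI of Glycam1, a gene found in 10 of 217 members, 92 of 3930 other Dcn-high barcodes and 372 of 1419 endothelial barcodes of that library (Glycam1 was looked at after its values were seen). Without them Cxcl14 stood at 136 CPM in library 1. The part of shallow barcodes in the Cxcl14 level of library 1 was not tested. The Saa3 ratio was 7.44 and 14.1 in deep barcodes, and 4.90 in library 2 without the barcode of 51698 UMIs, which held 67.0% of the Saa3 UMIs of its deep members.

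Members were then compared gene by gene with the other Dcn-high barcodes, with the genes of the rule left out. A gene was counted at 50 CPM or more in either group of each library and called where the ratio was 2 or more, or 0.5 or less, in both libraries. Of 3318 genes counted, 28 (0.844%) were called higher and 11 (0.332%) lower. The median log2 ratio over all counted genes was -0.12 and -0.05. Within library 1 alone 2.08% of genes were higher and 1.97% lower, and within library 2 alone 1.28% and 1.2%. Nearly all counted genes thus met neither limit. Of the 28 and 11 called genes, 6 (Cfb, Ccl19, Cxcl12, Steap4, Cpxm1 and Acp5) and 2 (Pcolce2 and Rbp4) were called under all 13 other settings tried. The setting with a floor of 20 CPM could add calls but not remove any. Angptl1 and Igf1 were not called among barcodes under 8000 UMIs, nor Rgs16 among those of 8000 or more. Ccl2 and C2 were not called once barcodes with 3 or more markers of endothelial, macrophage, chondrocyte, Schwann or T and B cells were left out. That setting kept barcodes with smooth muscle markers.

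Several chemokines were higher in members. Ccl19 (ENSMUSG00000071005), which draws lymphocytes and dendritic cells through CCR7, stood at 1394 and 1028 CPM, 3.54 and 3.98 times the level of other Dcn-high barcodes. Near-identical copies of Ccl19 exist, so its count is uncertain. Ccl7, a monocyte chemoattractant, stood at 1056 and 772 CPM, with ratios of 2.90 (2.76 to 3.04) and 3.41 (3.22 to 3.61). Ccl2, which draws monocytes through CCR2, stood at 1603 and 1016 CPM, 2.07 and 2.52 times higher. Cxcl12, the ligand of CXCR4, stood at 1367 and 1550 CPM, 2.43 and 2.75 times higher. Of the 14 listed chemokines outside the rule, 10 were counted, and Cxcl12, Ccl2 and Ccl7 were called higher and none lower. The share called higher over all counted genes was 0.844%. The median log2 ratio of the 10 was 0.97 and 0.74. Ccl2 was higher still in the Opcml set, at 2387 and 1570.2 CPM, and Ccl7 stood at 908 and 976 CPM there.

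The complement list held 17 genes, of which 11 were counted, 2 were called higher and none lower. These were Cfb and C2, the latter a protease component of the classical pathway, at 109 and 130 CPM and 2.09 and 2.22 times. C3, the central component on which the pathways converge, was the most abundant at 3419 and 3349 CPM. Its ratios of 1.96 (1.91 to 2.01) and 2.81 (2.73 to 2.88) left it just under the limit in library 1. The Opcml set held 2619 and 3010.5 CPM of C3. Serping1, the inhibitor of C1, had ratios of 1.43 and 1.71. The median log2 ratio of the list was 0.42 and 0.82, and 0.844% of all counted genes were called higher.

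The acute-phase list gave 1 call, beside 0.844% of genes called higher over all counted genes. Of its 18 genes outside the rule, 7 were counted in both libraries and Steap4 alone was called, at 237 and 228 CPM and 2.74 and 2.77 times the level of other Dcn-high barcodes. Steap4 is a metalloreductase induced by inflammatory cytokines. The metallothioneins Mt1 and Mt2, which bind zinc and copper, stood at 5966 and 3923 CPM and at 1924 and 1496 CPM, with ratios of 1.53 and 1.99 for Mt1 and 1.65 and 2.59 for Mt2. Serpina3n, a protease inhibitor, had ratios of 1.95 and 1.45, and Lcn2, an iron-siderophore binding protein, 1.12 and 1.45. The median log2 ratio of the 7 was 0.72 and 0.54, against -0.12 and -0.05 over all counted genes.

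Promoter sequences of 4 genes are shown because they are the pair in the set's name (Saa3 and Cxcl14), the most abundant complement gene (C3) and the acute-phase gene called outside the rule (Steap4). They cover 250 to 31 bases before a RefSeq start on GRCm38.p6, on the gene's own strand, and 8 of 10 genes looked for were in the table. They lie at chr7:46715707-46715926 (minus strand) for Saa3, chr17:57228167-57228386 (minus) for C3, chr5:7960222-7960441 (plus) for Steap4 and chr13:56296582-56296801 (minus) for Cxcl14. The windows of Saa3, Cxcl14 and Chl1 and the second window of Il33 lie inside the gene spans given above. Those windows are thus upstream of the start used, not of the whole span. Capitals mark matches, on either strand, to the C/EBP motif TTGCNNAA, the STAT motif TTCCNGGAA or the NF-kB motif.
Saa3: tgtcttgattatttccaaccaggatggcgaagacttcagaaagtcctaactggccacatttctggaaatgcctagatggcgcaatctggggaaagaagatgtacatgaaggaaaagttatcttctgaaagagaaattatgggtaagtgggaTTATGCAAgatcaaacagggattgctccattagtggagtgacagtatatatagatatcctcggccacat
C3: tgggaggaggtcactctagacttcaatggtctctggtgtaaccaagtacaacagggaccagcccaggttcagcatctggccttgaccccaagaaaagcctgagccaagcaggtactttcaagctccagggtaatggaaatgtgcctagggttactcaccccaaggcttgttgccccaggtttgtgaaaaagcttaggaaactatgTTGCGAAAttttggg
Steap4: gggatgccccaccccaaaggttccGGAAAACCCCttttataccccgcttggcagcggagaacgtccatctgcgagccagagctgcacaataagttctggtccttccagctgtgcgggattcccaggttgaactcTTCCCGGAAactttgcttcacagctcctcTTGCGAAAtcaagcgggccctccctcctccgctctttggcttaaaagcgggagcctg
Cxcl14: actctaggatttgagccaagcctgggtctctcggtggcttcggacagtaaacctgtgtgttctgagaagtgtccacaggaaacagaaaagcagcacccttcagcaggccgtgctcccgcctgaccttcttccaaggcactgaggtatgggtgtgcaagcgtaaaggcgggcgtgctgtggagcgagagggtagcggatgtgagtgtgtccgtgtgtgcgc
The C/EBP match begins 99 bases before the start in Saa3, 45 in C3 and 87 in Steap4. Steap4 also holds a STAT match that begins 116 bases and an NF-kB match that begins 226 bases before the start. Cxcl14 holds none of the 3 motifs in this window. Nor do the windows of Chl1, Cxcl12, Angptl1 and the first start of Il33, while the second start of Il33 holds a C/EBP match, so that 4 of the 8 genes had a match in at least 1 of 9 windows. Over 32851 windows of the same length in the RefSeq table, 8.78% held the C/EBP motif, 0.785% the STAT motif and 4.36% the NF-kB motif. These are matches of letters, and no binding was measured.

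Cytokines, their receptors and the targets of inflammatory signalling showed no call. Over all counted genes 0.844% were called higher and 0.332% lower. No call in lists this short therefore does not set them apart from all genes. Of 22 listed cytokine and receptor genes outside the rule, 10 were counted, with a median log2 ratio of 0.18 and 0.22. Il1r1, the interleukin 1 receptor, stood at 211 and 209 CPM with ratios of 1.66 and 1.81. Il6st, the shared signalling chain of the interleukin 6 family, had ratios of 1.16 and 1.2. Il1rl1, the receptor of interleukin 33, had 2 and 3 UMIs in all members. Of 22 NF-kB and STAT3 targets, 17 were counted and none was called, with a median log2 ratio of -0.22 and -0.13. Among them Nfkbia stood at 0.99 and 1.11 times, Socs3 at 0.59 and 0.62 times and Cebpd at 0.61 and 0.73 times the level of other Dcn-high barcodes. Of 16 interferon genes 5 were counted, of 11 antigen presentation genes 6, and of 15 immediate early and heat shock genes all 15, and none was called. The last list had a median log2 ratio of -0.36 and -0.37, with Fos at 0.76 and 0.70 times.

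Growth factors and their antagonists gave calls in both directions. Of 41 listed genes 21 were counted, and 3 were called higher and 3 lower. Among all counted genes 0.844% were called higher and 0.332% lower. Angptl1, an angiopoietin-like secreted protein, had the largest ratio of the genes outside the rule counted by the weaker library, at 109 and 70.7 CPM and 10.6 (8.84 to 12.6) and 6.24 (5.06 to 7.65). It was found in only 37 and 35 members, and 5 barcodes held 72.8% and 60% of its UMIs. Igf1, insulin-like growth factor 1, stood at 435 and 379 CPM, with ratios of 3.16 and 2.99. After thinning, Igf1 was found in 48.4% and 41.5% of members, 19.8% and 20.8% of other Dcn-high barcodes and 37.5% and 40.1% of macrophage barcodes. Sfrp1, a secreted Wnt antagonist, had ratios of 2.20 and 2.06. Bmp4, a bone morphogenetic protein, was lower at 28.5 and 23.9 CPM against 81.1 and 73.7 CPM, Vegfd, a lymphatic growth factor, at 35.0 and 29.9 CPM against 81.8 and 89.3 CPM, and Gdf15, a stress-induced cytokine, at 37.1 and 29.9 CPM against 95.7 and 64.8 CPM. Free RNA held 104 and 58.9 CPM of Bmp4 and 126 and 86.2 CPM of Gdf15, above the members.

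Other regulators of these pathways lay outside that list. Bmper, a binding protein of bone morphogenetic proteins, stood at 120 and 115 CPM with ratios of 3.61 and 2.60. Shisa3, a modulator of Wnt signalling, had ratios of 2.57 and 3.07. Sfrp4, another Wnt antagonist, stood at 1480.0 and 2378 CPM, with ratios of 1.86 (under the limit) and 6.13. Members of library 2 held 1.61 times the Sfrp4 level of library 1, whereas other Dcn-high barcodes held 0.488 times.

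Collagen genes summed to 41530.5 and 27332 CPM in members, against 20197 and 19810.1 CPM in other Dcn-high barcodes. Of 17 collagen genes 16 were counted, with a median log2 ratio of 0.28 and 0.22, and Col3a1, the chain of type III collagen, alone was called, at 16905 and 9492 CPM with ratios of 2.96 (2.93 to 3.00) and 2.18 (2.14 to 2.21). Col1a1 had ratios of 2.19 and 1.18 and Col1a2 of 1.75 and 1.22. None of 28 other matrix genes counted was called, beside 0.844% called higher and 0.332% lower over all counted genes. Their median log2 ratio was -0.11 and -0.04. Among 16 matrix proteases and inhibitors counted, Ctsk, which encodes the collagen-degrading cathepsin K, was called at 382 and 353 CPM with ratios of 2.14 and 2.0. Mmp3 stood at 2118 and 3552 CPM with ratios of 1.99 and 2.51. Cilp, a cartilage and stromal matrix protein, had ratios of 4.56 and 3.20 but was found in 39 and 40 members. Cpxm1, a secreted carboxypeptidase-like protein, stood at 546 and 349 CPM with ratios of 4.22 and 2.66.

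Among the other named genes, Plac8 stood at 544 and 252 CPM with ratios of 3.62 and 3.01. Kng2, a kininogen and so a precursor of bradykinin, stood at 70.5 and 71.7 CPM with ratios of 4.77 and 6.89. Rgs16, a regulator of G protein signalling, had ratios of 4.69 and 3.15, and Acp5, tartrate-resistant acid phosphatase, 2.96 and 3.34. Macrophage barcodes held Acp5 too, in 25.3% and 9.03% of them after thinning against 12.9% and 10.2% of members. Angptl4, an inhibitor of lipoprotein lipase, was the single call among 8 lipid-handling genes counted, at 232 and 187 CPM with ratios of 2.33 and 2.55. None of 19 transcription factors counted of 48 was called, with a median log2 ratio of -0.41 and -0.34. None of 13 universal fibroblast genes counted was called. With 0.844% called higher and 0.332% lower over all counted genes, no call in these 2 lists does not set them apart. Dpt, dermatopontin, had ratios of 1.68 and 1.76, and Gsn, gelsolin, 0.48 and 0.71.

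The genes called lower included carriers, enzymes and secreted proteins. Pcolce2, an enhancer of procollagen processing, stood at 117 and 155 CPM against 409 and 449 CPM, which is 3.48 and 2.90 times lower. Rbp4, the carrier of retinol, stood at 47.9 and 72.8 CPM against 188 and 183 CPM. It was the single call among 5 retinoid genes counted, beside 0.332% of all counted genes called lower. Fmo2, a flavin monooxygenase, was 2.68 and 2.05 times lower and Gstm1, a glutathione transferase, 2.34 and 2.05 times lower. Lsamp, a neural adhesion molecule, was 2.13 and 3.45 times lower and Rcan2, a regulator of calcineurin, 2.35 and 2.37 times lower. Cytl1, a small cytokine-like protein, was 2.44 and 3.17 times lower, at 387 and 73.4 CPM, and 78.5% and 73.5% of endothelial barcodes held it after thinning against 22.6% and 12% of members. Free RNA held 1060 and 352 CPM of Cytl1, above the members. Fmo2 and Rbp4 were highest in the Inmt set, at 1624 and 1090.9 CPM and at 717 and 477 CPM, and the rule removes barcodes with genes of that set.

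**Figure D4:**
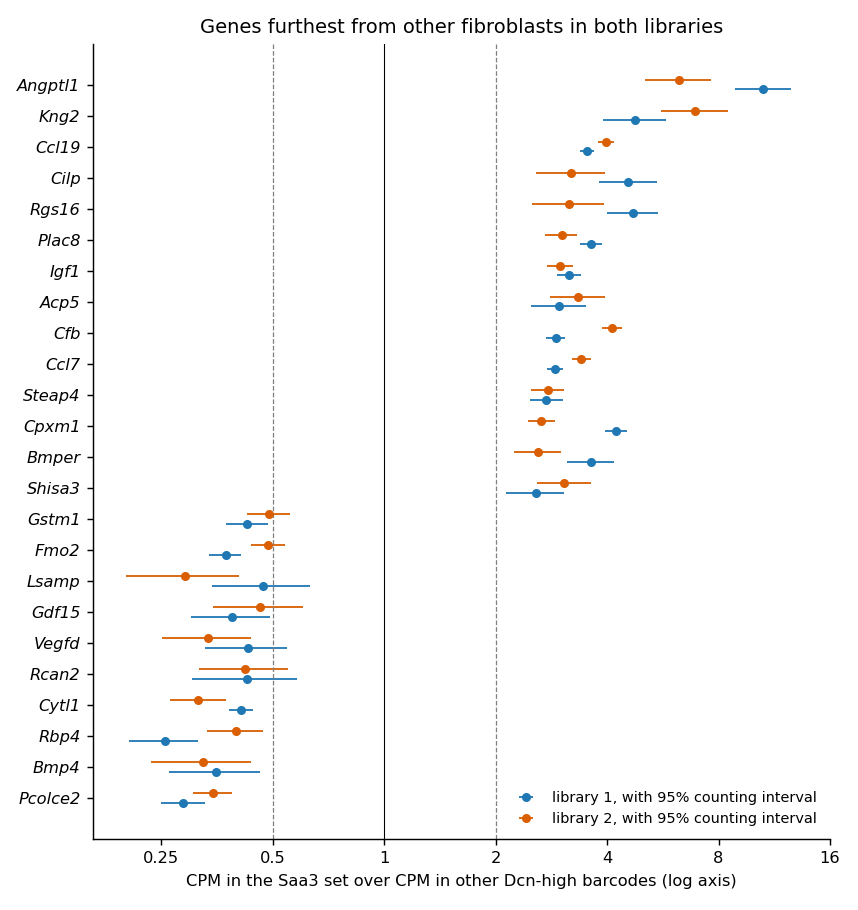
CPM in the Saa3 set over CPM in the other Dcn-high barcodes (log axis) for 14 of the 15 genes outside the rule with the highest ratios and the 10 with the lowest, ranked by the weaker library. Points are library 1 (blue) and library 2 (orange), bars are 95% counting intervals, and dashed lines mark ratios of 0.5 and 2. Angptl1 is furthest to the right at 10.6 and 6.24, and Pcolce2 is at the bottom at 0.29 and 0.34.

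Taken 1 at a time, the mirrored sets differed from members in more genes. Against the Inmt set 2.53% of genes were higher and 4.1% lower in members, against the Opcml set 3.51% and 5.66%, and against the Penk set 4.93% and 4.75%. Against all 3 mirrored sets at once, 6 of 3002 genes counted (0.2%) were higher by 2 or more in both libraries and 1 (0.0333%) was lower. Among the 6 were Cfb, Angptl1, Kng2, Rgs16 and Acp5. Angptl1 stood at 14.97 and 21.1 CPM in the Inmt set, 13.3 and 7.89 CPM in the Opcml set, and 0.33 and 1.499 CPM in the Penk set. Kng2 stood at 9.43 and 13.5 CPM, 1.43 and 3.59 CPM, and 6.28 and 3.90 CPM in the same sets. Rgs16 reached at most 7.27 and 10.2 CPM among them. Pcolce2 was the gene lower than in all 3, which held 474 and 452 CPM, 1098 and 885 CPM, and 240 and 411 CPM.

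Within the set, library 2 was compared with library 1. Of 3407 genes counted at 50 CPM or more in either library, 34 (0.998%) were 2 or more times higher in library 2 and 43 (1.26%) in library 1, and the median log2 ratio was 0.07. Among acute-phase genes 4 of 10 counted were higher in library 1 (Saa2, Hp, Serpina3g and Ptx3) and none in library 2. Among chemokines Cxcl5 and Cxcl10 of 11 counted were higher in library 1, at 104 and 40.2 CPM and at 175 and 83.2 CPM. Hp stood at 1657 and 551 CPM, a ratio of library 1 over library 2 of 3.01 (2.80 to 3.23), while other Dcn-high barcodes differed by 0.807 for library 2 over library 1. In both libraries 5 barcodes held most Hp UMIs, 65.2% and 73.2%.

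Several of the largest differences between libraries rested on single barcodes. Saa2, a second acute-phase serum amyloid A gene, stood at 62.5 and 2.72 CPM, and 1 barcode held 96.6% of its 116 UMIs in library 1. Chil1, a chitinase-like secreted protein, stood at 5.92 and 167 CPM, and 1 barcode held 83.8% of its 308 UMIs in library 2. Ibsp, bone sialoprotein, had no UMI in library 1, which allows up to 3 UMIs, and 248 in library 2, at least 83.5 times higher. It stood 11.3 times higher in library 2 among other Dcn-high barcodes too. Clca3a2, a chloride channel accessory protein, stood at 156 and 3.26 CPM, with 81.0% of the library 1 UMIs in 5 barcodes. Nt5dc2 was spread more widely, over 51 members of library 1 and 13 of library 2, at 65.1 and 8.15 CPM. Apod, apolipoprotein D, stood at 108 and 549 CPM, with 38.8% of the library 2 UMIs in 1 barcode. Lyz2, a lysozyme of macrophages, stood at 684 and 154 CPM over 64 and 67 members, and its direction turned when barcodes with 3 or more markers of endothelial, macrophage, chondrocyte, Schwann or T and B cells were left out. Serpina3g, Itm2a and Depdc5 were 8.77, 6.24 and 5.63 times higher in library 1, and Serpinb2, Iigp1, Slurp1, Nrn1 and Rgs1 were 36.3, 4.51, 3.92, 2.96 and 3.00 times higher in library 2. The direction of Serpinb2 turned at 4000 UMIs, that of Chil1 and Slurp1 with at most 1 gene of each competing set, that of Slurp1 also without the barcodes with those other markers, and that of Saa2 below 8000 UMIs.

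Spp1, the secreted phosphoprotein osteopontin, varied widely among members (it was chosen after its values were seen). Its level over the set was 6308 and 8920 CPM, close to the 6185 and 7614 CPM of other Dcn-high barcodes and above the 2566 and 4257 CPM of free RNA. At 2000 CPM or more it was found in 41 and 110 members, 18.9% and 40%, against 24.2% and 38.9% of other Dcn-high barcodes. Several of the set's own genes were lower in those members. Chl1 stood at 42.3 and 171 CPM in them against 352 and 417 CPM in the other members, Cfb at 115 and 290 CPM against 806 and 876 CPM, and Saa3 at 830 and 1198 CPM against 5744 and 3136 CPM. Without the barcode of 51698 UMIs the last value was 1583 CPM. In other Dcn-high barcodes Cfb was also lower beside high Spp1, at 45.1 and 62.2 CPM against 289 and 231 CPM, and so was Saa3 in library 1, at 292 against 655 CPM. In library 2 their Saa3 level was 186 CPM beside high Spp1 and 143 CPM in the rest.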

How the data were processed

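Droplet 3′ single-cell RNA sequencing (Chromium v3, per the labels' protocols) gave 1 matrix for the series, in which the authors deposited raw UMI counts per gene and barcode without normalization. Cell Ranger 6.0.1 wrote it per the file headers, and the submitters' processing notes also name bcl2fastq, Seurat and mm10. No annotation version is named there. The matrix is unfiltered, with 32285 genes and 1369431 and 1459189 barcodes holding 110257209 and 124266676 UMIs. The mt- and Dcn limits and the detection rule chose members. UMIs were summed per group and library and divided by the sum's total to give CPM. Ratios have conditional binomial intervals, levels Poisson and shares Clopper-Pearson intervals at 95%, which cover counting error only. A count of 0 was given 3 counts. Shares were also taken after thinning to 2000 UMIs (seed 1). No p-value was computed, no doublet caller was run, and no sample was mapped to a library. Scripts used Python 3.11.15, numpy 2.4.6, scipy 1.17.1, pandas 2.3.3 and matplotlib 3.10.9. The ratios were also run on simulated sums with known changes. Those sums held counting error only, so the run does not cover differences between barcodes.

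Genes named are the 5 rule genes and Cfb, the 15 highest and 10 lowest ratios by the weaker library at 50 CPM or more in both, the 4 most abundant and all called genes of each list, and the 8 highest ratios of each library over the other; some of these are not reported here. The members and gene lists were chosen with earlier results of these data known. Of 482 list symbols, 2 (Ccl19 and Ccl21a) did not match a single gene and were left out of their lists. Alternatives changed the limits on UMIs, Dcn, mitochondrial share, rule genes and competing genes, the summing, scaling and CPM floor, and left out barcodes with markers of endothelial, macrophage, chondrocyte, Schwann or T and B cells.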

Additional observations from a re-analysis of the deposited data

How the results depend on the processing

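No paired analysis was possible because no library is tied to a sample and no test was made. Of the 28 genes called higher, 6 (Cfb, Ccl19, Cxcl12, Steap4, Cpxm1 and Acp5) were called in all 13 alternatives, and of the 11 lower, Pcolce2 and Rbp4. Of 972 gene ratios recomputed, 453 moved by more than their interval and 6 changed sign. The 972 include 76 ratios at a floor of 20 CPM, where no ratio could move and no call could be lost. The alternatives at 8000 UMIs, without the barcode that holds most UMIs of a gene, and with fewer than 3 rule genes in the reference were chosen after seeing the data. The cause of each change was not tested, except that stricter limits leave fewer barcodes.

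Members numbered 97 and 130 at 4000 UMIs, 111 and 132 at 80 Dcn UMIs per 10000, 81 and 111 (1.95% and 1.95% of Dcn-high barcodes) with 4 rule genes, 107 and 148 (2.58% and 2.60%) with at most 1 competing gene, and 55 and 54 (4.32% and 5.85%) at 8000 UMIs. In library 2 the share was 6.68% at 4000 UMIs and 3.36% with detection after thinning, and 173 members remained without barcodes carrying 3 or more endothelial, macrophage, chondrocyte, Schwann or T and B cell markers (called other markers here, smooth muscle not included). Genes called higher numbered 17 at 80 Dcn UMIs, 55 with 4 rule genes, 71 with thinned detection and 43 at 20 CPM. Genes called lower numbered 20 at 4000 UMIs, 18 at 80 Dcn UMIs, 103 with 4 rule genes, 91 with thinned detection, 31 without barcodes carrying other markers, 7 with ratios divided by their median, 28 at 20 CPM, 37 at 8000 UMIs and 17 against barcodes with fewer than 3 rule genes. Genes higher in library 2 and in library 1 numbered 189 and 109 with 4 rule genes, 98 and 116 with at most 1 competing gene, 104 and 65 with thinned detection, 125 and 100 at 20 CPM, and 103 and 86 under 8000 UMIs. Those higher in library 2 also numbered 55 without barcodes carrying other markers and 78 with the mean of barcode CPM. The log2 ratio of library 2 over library 1 turned to -0.91 for Serpinb2 at 4000 UMIs, -0.34 for Chil1 and -0.051 for Slurp1 with at most 1 competing gene, 0.30 for Lyz2 and -0.79 for Slurp1 without barcodes carrying other markers, and 1.43 for Saa2 under 8000 UMIs. Depth limits what can be detected in the 162 and 221 members under 8000 UMIs.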
